A study of Mus musculus with 4 samples.

Results

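The replication-dependent histone genes encode the core histones H2A, H2B, H3 and H4 that are made in bulk while DNA is copied. Members were taken by symbol from the 4 count tables, as the genes whose names begin with H2ac, H2bc, H3c or H4c or with an older name of the form Hist1h. This gave 59 of the 25239 genes in the tables, of which 18 encode H2A, 17 H2B, 12 H3 and 12 H4. Of these, 49 carry a Hist1 name in older annotation and lie on chromosome 13, and 10 carry a Hist2 name and lie on chromosome 3 (GRCm38). No symbol began with H1-, so the 6 linker histone genes, listed as H1f1 to H1f6, are described apart from the members, with 4 further genes whose older names begin with Hist3 or Hist4.

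Messages of these genes usually end in a conserved stem-loop and not in a poly(A) tail. The stem-loop is bound by the protein encoded by Slbp, and the end is cut by a complex that includes the products of Lsm10, Lsm11, Cpsf3 and Sympk. Amounts of these messages follow DNA synthesis, as do the polyadenylated messages of Tk1, Rrm2 and Mcm5. A library made from poly(A)-selected RNA holds few tailless messages, and a small number of histone genes are also reported to give polyadenylated transcripts.

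RNA-seq was performed on B16 tumors, which grew from 1 transplanted melanoma line placed subcutaneously in each flank of B6 mice, with treatment on day 7. The labels give CTX by intraperitoneal injection on the day before ACT for the mice as a whole, controls included, and tissue was taken 12 days after ACT. The labels expand neither abbreviation. The extraction notes give total RNA and standard Illumina library preparation, and how RNA was selected is not given in the sources used here. The MV left tumor library came from left tumors injected with free MV, and the same mice had TRP-1 T cells injected intravenously. In table headers MV appears as MYXV. The TRP-1MV library came from mice whose intravenously injected TRP-1 T cells carried MV. The remote tumor library came from the right tumors, which got no injection, of the mice whose left tumors got MV and which also received TRP-1 T cells. The CTX library came from mice whose left tumors were injected with PBS, and their labels list neither T cells nor MV. The tumors keep the host's own immune and stromal cells.

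Each group had 1 library, so no spread between replicates could be measured and no test was made. An n of 2 stands in the labels, and pooling of mice is not mentioned. Ranges in brackets are 95% exact intervals for counting error alone, and animals or preparations may differ by more. Library totals were 12375526 reads for the MV left tumor, 14802809 for TRP-1MV, 21790759 for the remote tumor and 20811605 for CTX. A gene with 0 reads could have had up to 0.222 CPM in the MV left tumor, 0.186 in TRP-1MV, 0.151 in the remote tumor and 0.156 in CTX, by a floor of 3 counts. All 8 melanocyte markers had reads in every library.

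The stem-loop that marks these messages was found in the GENCODE M21 transcripts of 39 members, as a stem of 6 base pairs closed by a loop of 4 bases. It was found in 113 of 55341 GENCODE gene symbols, or 0.204%. The members had 8 versions of it, and 21 members shared one. The GENCODE model of H2bc18, at 381 bases, was among those that hold none. Sequence past the ends of the models was not searched, so a stem-loop beyond a short model would have been missed. The 5 examples below belong to members at the high and low ends of the ratios given later, and their capitals mark the stem-loop within its flanks (transcript strand, GRCm38).
H3c6: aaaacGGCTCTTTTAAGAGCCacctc
H4c6: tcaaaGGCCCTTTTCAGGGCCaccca
H4c14: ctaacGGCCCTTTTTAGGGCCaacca
H4c9: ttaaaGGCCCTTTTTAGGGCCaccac
H2bc11: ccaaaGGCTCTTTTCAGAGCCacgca

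H4c14 and H4c9 had the same 16-base stem-loop, and H2bc11 had the version shared by 21 members. The ratio to CTX of H4c14 was high and those of H4c9 and H2bc11 were near equality, with values given under each class.

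Upstream sequence was read from RefSeq (GRCm38.p6) for 52 of the 59 members, over the 250 bases before the annotated start. The motif CCAAT, the TATA box letters TATAAA and the octamer ATTTGCAT were searched on both strands, with overlapping matches counted. CCAAT was present for 16 of 16 H2A, 15 of 15 H2B, 8 of 10 H3 and 3 of 11 H4 members, against 33.8% of all 32851 promoters. TATAAA was present for 24 of 52 members, against 12.4% of all promoters. The octamer was present for 6 of 16 H2A and 6 of 15 H2B members and for 0 of the H3 and H4 members, against 1.60% of all promoters. These are matches of letters, and binding was not measured. Windows of H2A and H2B genes that lie head to head can overlap, so a single site can count for both, as the octamer of H2ac8 and H2bc8 does. The upstream sequences of H2bc18, H3c6 and H4c6, the members with the highest ratios to CTX in their classes, are printed with matches in capitals. Those of H2bc18 (chr3:96269450-96269699, plus strand), H3c6 (chr13:23562386-23562635, minus strand) and H4c6 (chr13:23551669-23551918, minus strand) are each given 5′ to 3′.
H2bc18: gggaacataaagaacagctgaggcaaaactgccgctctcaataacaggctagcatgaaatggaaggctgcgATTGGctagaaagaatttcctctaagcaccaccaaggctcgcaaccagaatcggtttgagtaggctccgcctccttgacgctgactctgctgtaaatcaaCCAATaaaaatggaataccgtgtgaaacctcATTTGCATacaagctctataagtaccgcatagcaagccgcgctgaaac
H3c6: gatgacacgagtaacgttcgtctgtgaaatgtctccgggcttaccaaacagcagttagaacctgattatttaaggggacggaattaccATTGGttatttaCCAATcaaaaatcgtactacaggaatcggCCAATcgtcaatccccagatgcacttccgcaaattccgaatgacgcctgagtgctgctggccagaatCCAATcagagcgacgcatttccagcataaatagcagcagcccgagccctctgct
H4c6: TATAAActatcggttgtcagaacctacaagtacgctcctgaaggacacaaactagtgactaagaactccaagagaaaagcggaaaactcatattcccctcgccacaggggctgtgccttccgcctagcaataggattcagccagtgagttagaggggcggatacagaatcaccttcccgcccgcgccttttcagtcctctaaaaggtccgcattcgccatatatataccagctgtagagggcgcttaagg

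The H2bc18 sequence holds CCAAT on either strand and 1 octamer, and that of H3c6 holds CCAAT 4 times. In the H4c6 window neither CCAAT nor the octamer was present, and the single TATAAA lies at its far end.

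Reads of the 59 members were rare in all libraries. They summed to 2424 in the MV left tumor, 2870 in TRP-1MV, 474 in the remote tumor and 450 in CTX. As unscaled CPM this was 196 [188, 204] in the MV left tumor, 194 [187, 201] in TRP-1MV, 21.8 [19.8, 23.8] in the remote tumor and 21.6 [19.7, 23.7] in CTX. The MV left tumor and TRP-1MV stood together well above the remote tumor and CTX, which stood together as well. Of the 59 members, 42 had a read in the MV left tumor, 42 in TRP-1MV, 34 in the remote tumor and 30 in CTX.

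Levels below are CPM scaled by TMM, a factor per library that sets most genes equal, and ratios are on the log2 scale. Over all 59 members the level was 179 CPM in the MV left tumor, against 23.5 CPM in CTX, a log2 ratio of 2.93 [2.79, 3.08] or 7.64-fold. In TRP-1MV it was 178 CPM, a log2 ratio to CTX of 2.92 [2.78, 3.07]. In the remote tumor it was 23.8 CPM, a log2 ratio to CTX of 0.02 [−0.17, 0.21]. All 3 ratios share the CTX library. The median over all genes compared was −0.05 for the MV left tumor, −0.07 for TRP-1MV and −0.00 for the remote tumor against CTX. Scaling on total counts added 0.24 to every log2 ratio of the MV left tumor to CTX, and scaling on a housekeeping list added 0.60. Under each scaling tried the summed members stayed higher in the MV left tumor than in CTX.

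As sums of reads, the classes did not move by the same factor. Against CTX the MV left tumor had summed log2 ratios of 3.89 [3.59, 4.20] for H3 and 3.80 [3.43, 4.20] for H4. For H2A the ratio was 2.51 [1.99, 3.07] and for H2B 1.83 [1.61, 2.05]. The counting intervals of H3 and H4 overlapped each other and lay above those of H2A and H2B. Of the 251 H2B reads in CTX, 113 were of H2bc4 and 92 of H2bc21, so the H2B ratio rested largely on these genes. Of the 38 H2A reads in CTX, 13 were of H2ac8 and 8 of H2ac11, so the H2A ratio rested largely on few genes too. Class ratios without these genes were not computed, and the order of the classes holds for the sums only. In TRP-1MV against CTX the order was alike, with H3 at 3.86, H4 at 3.79, H2A at 2.19 and H2B at 1.92. As a share of all member reads, H3 made up 42.2% in the MV left tumor, 41.7% in TRP-1MV, 21.3% in the remote tumor and 21.8% in CTX. H2B made up 25.9%, 27.7%, 53.2% and 55.8% of member reads in the MV left tumor, TRP-1MV, the remote tumor and CTX. H3 was thus the leading class in the MV left tumor and TRP-1MV, and H2B in the remote tumor and CTX.

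**Figure D1:**
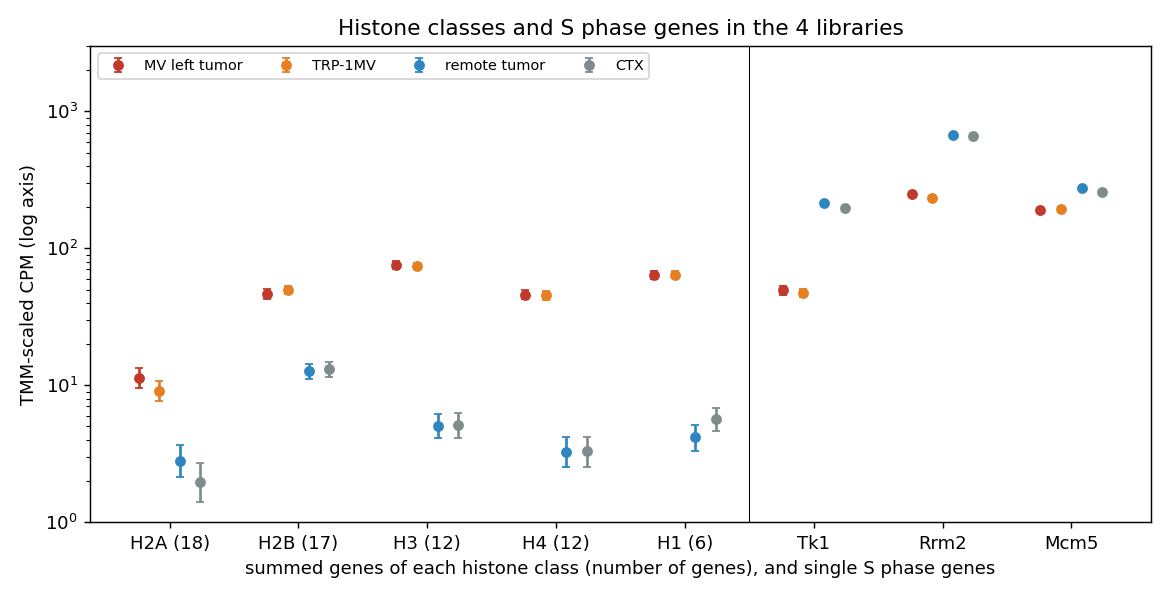
TMM-scaled CPM on a log axis for the summed genes of each histone class and for Tk1, Rrm2 and Mcm5, with points for the 4 libraries and bars for the 95% counting interval. All 5 histone classes lie higher in the MV left tumor and TRP-1MV than in the remote tumor and CTX, whereas the S phase genes lie lower there on the TMM scale, with Mcm5 turned higher than CTX on a housekeeping scale.

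The S phase genes had lower levels in the MV left tumor and TRP-1MV than in CTX on the TMM scale, and Mcm5, the least changed, was higher on the housekeeping scale. Tk1, the thymidine kinase gene of S phase, had 669 reads in the MV left tumor, 760 in TRP-1MV, 4246 in the remote tumor and 3753 in CTX. Rrm2, a subunit of ribonucleotide reductase, had 3340 reads in the MV left tumor, 3753 in TRP-1MV, 13340 in the remote tumor and 12600 in CTX. Mcm5, a subunit of the replicative helicase, had 2575 reads in the MV left tumor, 3096 in TRP-1MV, 5453 in the remote tumor and 4942 in CTX. Their log2 ratios in the MV left tumor against CTX were −1.98 for Tk1, −1.41 for Rrm2 and −0.44 for Mcm5, where scaling on the housekeeping list turned that of Mcm5 positive, also for TRP-1MV. In the remote tumor against CTX the ratios were 0.12, 0.03 and 0.09 for Tk1, Rrm2 and Mcm5. Summed, these genes had a log2 ratio of 0.06 [0.03, 0.09] there, slightly above equality.

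Setting members against these 3 genes within a library needs no scaling factor. There were 368 member reads per 1000 reads of Tk1, Rrm2 and Mcm5 in the MV left tumor, 377 in TRP-1MV, 20.6 in the remote tumor and 21.1 in CTX. The log2 ratio of this quotient in the MV left tumor to that in CTX was 4.12 [3.97, 4.28], or 17.4-fold, and in TRP-1MV to CTX it was 4.16 [4.01, 4.31]. Between the remote tumor and CTX it was −0.04 [−0.23, 0.15]. The size depended on the genes taken: with all 30 S phase genes of a wider list it was 3.43 in the MV left tumor and 3.49 in TRP-1MV to CTX, and without the members reported as polyadenylated it was 4.80 in both. By class, the MV left tumor to CTX log2 ratio of the quotient was 5.08 for H3, 4.99 for H4, 3.70 for H2A and 3.02 for H2B. For the histone variant genes named further below, the same quotient gave 1.01 [0.96, 1.05] in the MV left tumor to CTX. In TRP-1MV to CTX it gave 1.00 [0.96, 1.04] for these variant genes. In that wider list of 30 genes, 0 were higher and 3 lower in the MV left tumor than in CTX. Over all 13357 genes 18.1% were higher and 11.1% lower, so the share lower was near that of all genes. The 3 were Tk1 and Rrm2 of the genes above and the thymidylate synthase gene Tyms at −1.27. The median of that list was −0.39, and it turned positive on the housekeeping scale. Ccne2, a cyclin gene, was its highest member at 0.73. Of 12 genes of mitosis 5 were lower and 0 higher, with a median of −0.87, from Ccnb2 at −1.28 to the proliferation marker Mki67 at 0.31.

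Ratios of single members were taken where the mean count over the 4 libraries was at least 10. Of the 59 members 26 passed, 18 had reads but fewer, and 15 had 0 reads in every library. H2bc9 and H2ac20, with means of 12.25 and 11.75 reads, lay just inside the minimum, and H2ac10 and H2ac21, with 7.25 and 6.75, just outside. Of the 26 members past the minimum, 17 had a mean under 10 in the remote tumor and CTX and passed through the MV left tumor and TRP-1MV, so they had to differ. The call of higher or lower needed a ratio of 2 or more, in either direction, together with an interval clear of equality. In the MV left tumor against CTX 21 of the 26 members were called higher and 0 lower, against 18.1% of all 13357 genes higher and 11.1% lower. The median log2 ratio of the 26 was 3.05, a value that this way of passing raises. Among the 8 members with 10 or more reads in CTX, chosen without regard to the other libraries, 4 were called higher, against 12.4% of all genes so selected. Their summed log2 ratio was 2.30 [2.13, 2.48]. At a mean count of at least 50, 8 of 9 members were called higher, against 13.4% of all genes. Members could pass this cut too through the MV left tumor and TRP-1MV. Of the 9, H2bc18, H3c8, H4c3 and H4c6 had under 10 reads in CTX. Counting all 59 members, 39 had more scaled reads in the MV left tumor than in CTX and 3 had fewer.

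**Figure D2:**
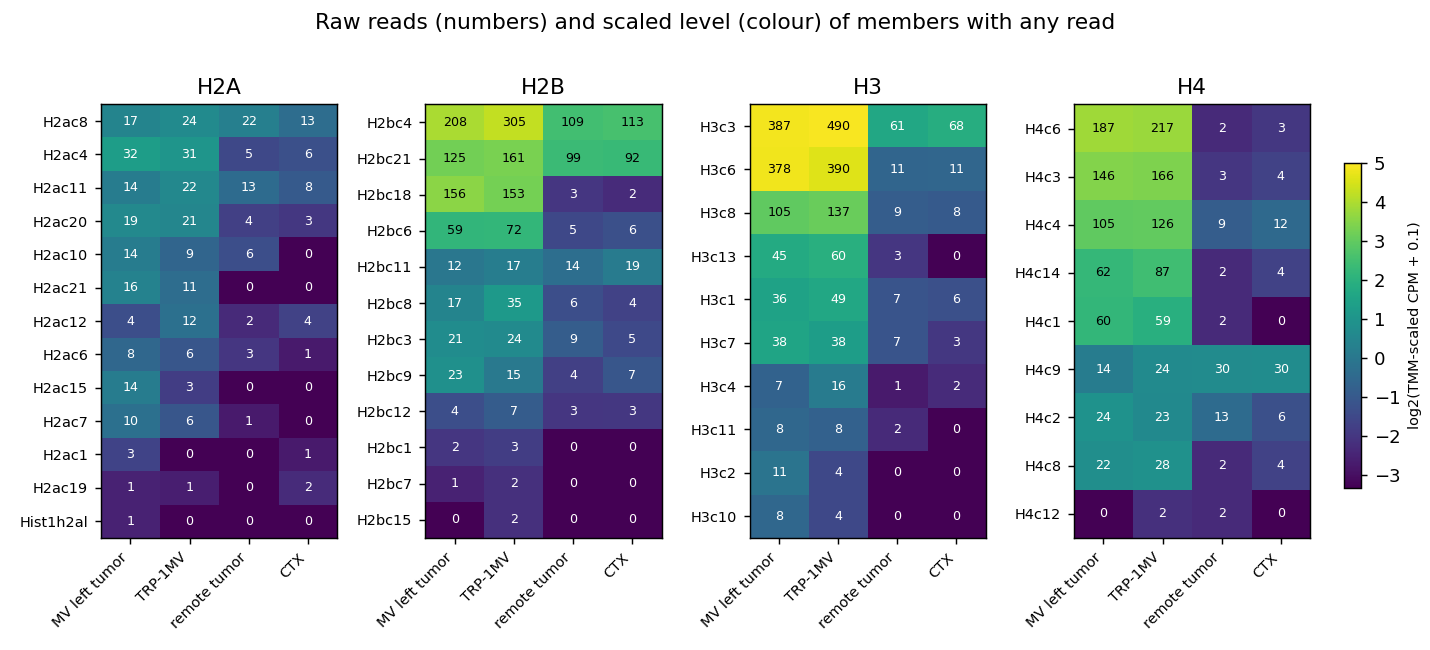
Raw reads (printed numbers) and TMM-scaled level (colour, log2 of CPM plus 0.1) of the 44 members with any read, by histone class, in the 4 libraries. H3c3 and H3c6 hold the most reads in the MV left tumor and TRP-1MV, and H2bc4 and H2bc21 the most in the remote tumor and CTX.

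H3 forms, with H4, the core tetramer around which DNA winds. Its genes gave the most reads of any class in the MV left tumor. H3c3 (chr13:23744973-23745602, minus strand) had 387 reads in the MV left tumor, 490 in TRP-1MV, 61 in the remote tumor and 68 in CTX. Its log2 ratio in the MV left tumor to CTX was 3.01 [2.64, 3.41], the lowest of the 6 measured H3 members. H3c6 (chr13:23561534-23562369, minus strand) had 378 reads in the MV left tumor, 390 in TRP-1MV, 11 in the remote tumor and 11 in CTX. These genes had similar counts in the MV left tumor and TRP-1MV but very unequal ones in the remote tumor and CTX, so the ratio of H3c6, 5.61 [4.75, 6.62], was the highest of its class. H3c8 had 105 reads in the MV left tumor, 137 in TRP-1MV, 9 in the remote tumor and 8 in CTX, and its log2 ratio in the MV left tumor to CTX was 4.22 [3.19, 5.47]. H3c13, in the Hist2 cluster, had 45 reads in the MV left tumor, 60 in TRP-1MV, 3 in the remote tumor and 0 in CTX. With the floor of 3 counts put in for CTX, H3c13 was 21.3-fold higher in the MV left tumor, a ratio that counting error could make smaller. Its model lies under an antisense gene model in GENCODE, and reads of both cannot be told apart without strand. All 6 H3 members past the minimum were called higher, beside 18.1% of all genes, H3c1 at 3.09 and H3c7 at 4.17 among them. H3c1, H3c7, H3c8 and H3c13 passed it through the MV left tumor and TRP-1MV, so these had to differ.

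H4 genes had the widest range. H4c6 (chr13:23551258-23551648, minus strand) had 187 reads in the MV left tumor, 217 in TRP-1MV, 2 in the remote tumor and 3 in CTX. Its log2 ratio in the MV left tumor to CTX was 6.47 [4.90, 8.76], or 88.5-fold. H4c3 had 146 reads in the MV left tumor, 166 in TRP-1MV, 3 in the remote tumor and 4 in CTX, and its log2 ratio in the MV left tumor to CTX was 5.69 [4.31, 7.59]. Both were nearly without reads in the remote tumor and CTX. H4c4 had 105 reads in the MV left tumor, 126 in TRP-1MV, 9 in the remote tumor and 12 in CTX, with a log2 ratio of 3.63 [2.77, 4.63] to CTX. H4c9 (chr13:22040636-22041362, minus strand) stood against the rest of its class, with 14 reads in the MV left tumor, 24 in TRP-1MV, 30 in the remote tumor and 30 in CTX. Its log2 ratio in the MV left tumor to CTX was −0.59 [−1.62, 0.37] and it was not called. H4c14, which has the same stem-loop, had 62 reads in the MV left tumor, 87 in TRP-1MV, 2 in the remote tumor and 4 in CTX, at 4.46 [3.03, 6.38]. H4c1 had 60 reads in the MV left tumor, 59 in TRP-1MV, 2 in the remote tumor and 0 in CTX. With the floor put in for CTX, it was 28.4-fold higher in the MV left tumor, a ratio that counting error could make smaller. In all, 7 of 8 measured H4 members were called higher, beside 18.1% of all genes. Apart from H4c4 and H4c9, the H4 members passed the minimum through the MV left tumor and TRP-1MV, so these had to differ.

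H2A and H2B pair with each other on the outside of the tetramer. Of 4 H2A members past the minimum, 2 were called higher in the MV left tumor than in CTX, beside 18.1% of all genes. These 2, H2ac4 and H2ac20, passed it through the MV left tumor and TRP-1MV, so they had to differ. H2ac4 had 32 reads in the MV left tumor, 31 in TRP-1MV, 5 in the remote tumor and 6 in CTX, and its log2 ratio in the MV left tumor to CTX was 2.92 [1.64, 4.47]. H2ac20 had 19 reads in the MV left tumor, 21 in TRP-1MV, 4 in the remote tumor and 3 in CTX, at 3.17 [1.40, 5.57]. H2ac8, with 17 reads in the MV left tumor, 24 in TRP-1MV, 22 in the remote tumor and 13 in CTX, had a log2 ratio of 0.89 [−0.24, 2.05] to CTX. H2ac11, with 14, 22, 13 and 8 reads in the MV left tumor, TRP-1MV, the remote tumor and CTX, had 1.31 [−0.04, 2.77]. The last 2 did not meet the call rule, and no H2A member exceeded 32 reads in any library.

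H2B held both the member with the highest ratio and those with the most raw reads in CTX. H2bc18 (chr3:96269752-96270132, plus strand) had 156 reads in the MV left tumor, 153 in TRP-1MV, 3 in the remote tumor and 2 in CTX. Its log2 ratio in the MV left tumor to CTX was 6.79 [4.91, 9.85], or 111-fold, and GENCODE places an antisense model across the whole gene and a noncoding model of the same strand across 226 of its 381 bases. H2bc4 (chr13:23684199-23692908, plus strand) had 208 reads in the MV left tumor, 305 in TRP-1MV, 109 in the remote tumor and 113 in CTX, at 1.39 [1.05, 1.73]. H2bc21 (chr3:96221119-96223738, plus strand) had 125 reads in the MV left tumor, 161 in TRP-1MV, 99 in the remote tumor and 92 in CTX, at 0.95 [0.55, 1.35]. H2bc4 and H2bc21 thus had most of the H2B reads in the remote tumor and CTX and moved least among the members with over 100 reads in any library. H2bc11 had 12 reads in the MV left tumor, 17 in TRP-1MV, 14 in the remote tumor and 19 in CTX, at −0.16 [−1.33, 0.96]. On the housekeeping scale the point ratios of H2bc11 and H4c9 turned positive. H2bc6 stood at 3.80 [2.60, 5.31], and its GENCODE model shares 496 exon bases with that of the linker histone gene H1f4 on the same strand. In all, 6 of 8 measured H2B members were called higher, beside 18.1% of all genes. Apart from H2bc4, H2bc11 and H2bc21, the H2B members passed the minimum through the MV left tumor and TRP-1MV, so these had to differ.

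**Figure D3:**
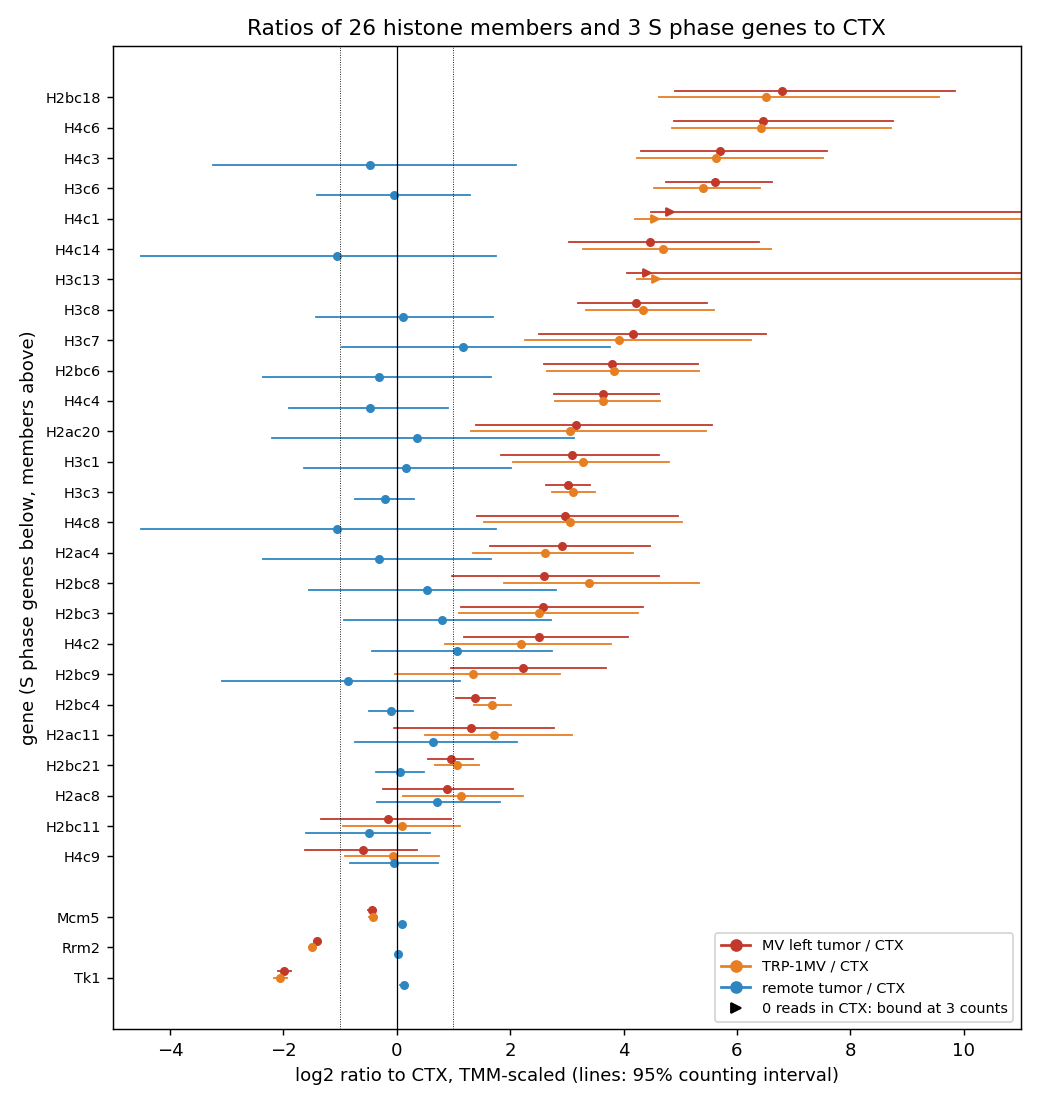
Log2 ratio to CTX, TMM-scaled, of the 26 members past the minimum count and of Tk1, Rrm2 and Mcm5 in the MV left tumor, TRP-1MV and the remote tumor, with lines for the 95% counting interval (some run off the axis) and no point where both libraries had 3 reads or fewer. Members run from H2bc18 at 6.79 to H4c9 at −0.59 in the MV left tumor, and TRP-1MV points lie beside those of the MV left tumor. Every interval of a member in the remote tumor includes 0, which does not hold for all S phase genes.

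Levels of different genes can be compared only per length, here per kilobase of GENCODE M21 exons. In the MV left tumor the highest levels were 45.5 CPM per kilobase for H3c3, 35.4 for H4c6, 33.5 for H3c6 and 30.3 for H2bc18. In CTX they were 5.63 for H3c3, 5.10 for H2bc4, 2.15 for H4c9 and 2.14 for H2bc11. H3c3 led in both libraries, and the members that followed it were different ones. The annotation that the authors counted on is not given in the sources used here, so these lengths may not be theirs.

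Of the members, 4 are among genes reported to give polyadenylated transcripts, namely H2bc4, H2bc21, H2ac6 and H2bc12. They summed to 345 reads in the MV left tumor, against 209 in CTX, a log2 ratio of 1.23 [0.98, 1.48]. The other 55 members summed to 2079 reads in the MV left tumor, against 241 in CTX, a log2 ratio of 3.61 [3.42, 3.81] or 12.2-fold. In TRP-1MV against CTX the ratios were 1.45 [1.21, 1.69] for these 4 and 3.56 [3.37, 3.76] for the others. The difference in ratio between these sets lay beyond their counting intervals, and the 4 made up 209 of the 450 member reads in CTX. H2ac6 had 8 reads in the MV left tumor, 6 in TRP-1MV, 3 in the remote tumor and 1 in CTX, and H2bc12 had 4, 7, 3 and 3 in the same libraries. A polyadenylation signal, AATAAA, lies in the last 50 bases of a GENCODE transcript of 10 members. Those 10 had a summed log2 ratio of 1.99 [1.68, 2.31] in the MV left tumor to CTX, against 3.15 [2.99, 3.32] for the 49 members without it. H2bc21 held 92 of the 115 CTX reads of the 10, and without it the other 9 had a ratio of 3.61 [2.98, 4.30], so the lower sum rested on that gene. The testis members H2ac1 and H2bc1 had at most 3 reads in any library.

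In TRP-1MV against CTX 23 of the 26 measured members were called higher and 0 lower, against 18.5% of all genes higher and 11.7% lower. By class these were 4 of 4 H2A, 6 of 8 H2B, 6 of 6 H3 and 7 of 8 H4 members. Of the 26, 17 had passed the minimum through the MV left tumor and TRP-1MV, so they had to differ. Among the 8 members with 10 or more reads in CTX, 6 were called higher, against 12.9% of all genes so selected. At a mean count of at least 50, 9 of 9 were, against 13.7% of all genes. That cut could be passed through the MV left tumor and TRP-1MV. The highest and lowest members of each class were those of the MV left tumor. H2bc18 stood at 6.51 [4.63, 9.57] and H2bc11 at 0.09 for H2B, H4c6 at 6.43 [4.86, 8.72] and H4c9 at −0.07 (positive on the housekeeping scale) for H4, H3c6 at 5.40 and H3c3 at 3.10 for H3, and H2ac20 at 3.06 and H2ac8 at 1.14 for H2A.

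In the remote tumor against CTX 0 of 22 members with a ratio were called in either direction, against 0.468% of all genes higher and 0.253% lower. The other 4 of the 26 had 3 reads or fewer in both libraries. Of the 59 members, 18 had more and 18 fewer scaled reads in the remote tumor than in CTX. By class the summed log2 ratios were 0.51 [−0.11, 1.14] for H2A, −0.05 [−0.31, 0.21] for H2B, −0.01 [−0.43, 0.41] for H3 and −0.01 [−0.53, 0.51] for H4. With at least 10 reads in CTX as the condition, 0 of 8 members were called, against 0.246% of all genes higher and 0.349% lower. All 4 class intervals included equality, and single members ranged from H3c7 at 1.17 [−0.96, 3.75] to H4c14 and H4c8 at −1.05. H2ac8 stood at 0.71, H2ac4 at −0.32, H2bc3 at 0.79, H2bc9 at −0.86, H3c3 at −0.21 and H4c2 at 1.06. With so few reads, changes of single members smaller than these intervals were not detectable at this depth.

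The MV left tumor and the remote tumor came from opposite flanks of one treatment group. The summed members had a log2 ratio of 2.91 [2.77, 3.06] in the MV left tumor to the remote tumor, with H3 at 3.90, H4 at 3.81, H2A at 2.01 and H2B at 1.88. Of the 26 members 21 were called higher and 0 lower, against 18.6% of all genes higher and 11.7% lower. As above, 17 of the 26 had passed the minimum through the MV left tumor and TRP-1MV. At a mean count of at least 50, 8 of 9 members were called higher, against 14.0% of all genes. That cut could be passed through the MV left tumor and TRP-1MV. Among the 9 members with 10 or more reads in the remote tumor 4 were called higher, against 13.3% of all genes so selected. H4c6 was the highest at 7.11 [5.23, 10.16] and H4c9 the lowest at −0.54, a value that turned positive on the housekeeping scale. In the other classes the ends were H2bc18 at 6.26 and H2bc11 at 0.34, H3c6 at 5.66 and H3c1 at 2.92, and H2ac4 at 3.24 and H2ac8 at 0.19. Per read of Tk1, Rrm2 and Mcm5 the log2 ratio was 4.16 [4.01, 4.31].

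Between TRP-1MV and the MV left tumor the summed log2 ratio was −0.01 [−0.09, 0.07]. Of the 26 members 0 were called, against 0.562% of all genes higher and 0.217% lower. With at least 10 reads in the MV left tumor as the condition, 0 members were called higher and 1 lower, against 0.455% of all genes higher and 0.425% lower. That member, H2ac15, had 3 reads in TRP-1MV and 14 in the MV left tumor. Among the 26, single members ran from H2bc8 at 0.79 [−0.09, 1.72] to H2bc9 at −0.87 [−1.91, 0.13], both with intervals that included equality. The 4 members reported as polyadenylated had 479 reads in TRP-1MV and 345 in the MV left tumor, at 0.22 [0.02, 0.42]. H2ac11 at 0.40 and H2ac4 at −0.30, H3c1 at 0.19 and H3c7 at −0.25, and H4c9 at 0.52 and H4c2 at −0.31 were the ends of the other classes.

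Genome position separated members further. Neighbouring members less than 100 kb apart were joined into stretches, a grouping chosen after their values were seen and given without a test. The stretch chr13:23531050-23762386 held 24 members, all with reads, which summed to 1916 in the MV left tumor, 2272 in TRP-1MV, 297 in the remote tumor and 282 in CTX. Its log2 ratio in the MV left tumor to CTX was 3.27 [3.09, 3.45]. The stretch chr13:22035164-22043676 held 5 members, H2ac12, H2bc12, H4c9, H2ac11 and H2bc11, which summed to 48 reads in the MV left tumor, 82 in TRP-1MV, 62 in the remote tumor and 64 in CTX. Its log2 ratios to CTX were 0.09 [−0.48, 0.65] in the MV left tumor and 0.61 [0.12, 1.10] in TRP-1MV. Both ratios of these 5 neighbours lay below those of the larger stretch, which was 3.26 in TRP-1MV to CTX. The stretch chr13:21715763-21837530 held 17 members, only 5 of them with reads, which summed to 30 in the MV left tumor, 19 in TRP-1MV, 4 in the remote tumor and 0 in CTX. The 10 members on chromosome 3 had a log2 ratio of 2.55 [2.23, 2.87] in the MV left tumor to CTX.

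Many H2A and H2B genes lie head to head, and by their GENCODE starts 12 such pairs of members lay at most 500 bases apart. In 3 pairs both partners passed the minimum count. H2ac20 and H2bc21, 239 bases apart, had log2 ratios of 3.17 [1.40, 5.57] and 0.95 [0.55, 1.35] in the MV left tumor to CTX, with counting intervals that did not overlap. H2ac8 and H2bc8, 176 bases apart, had 0.89 [−0.24, 2.05] and 2.59 [0.98, 4.62], with overlapping intervals. H2ac11 and H2bc11, 270 bases apart, had 1.31 [−0.04, 2.77] and −0.16 [−1.33, 0.96], which also overlapped, and the ratio of H2bc11 turned positive on the housekeeping scale. Differences between partners were not tested.

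Histone genes are near copies of one another, which bears on how reads were counted. The share of 50-base words of a member's transcripts that also occur in other genes had a median of 54.6% over the 59 members and was above 0 for 58 of them. It had a median of 88.7% for the 15 members without a read and 49.6% for the 44 with reads. The members at 0 therefore included many whose sequence is mostly shared, and whether the authors' counting dropped such reads is not given in the sources used here. H2bc21 shared 0 of its words, H4c14 1.01%, H4c4 10.2% and H3c6 73.4%. GENCODE exons of another gene overlap 23 of the members, and for 5 of these an overlapping gene lies on the same strand. Counts of members with shared sequence or an overlapping model are uncertain between neighbours and copies.

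**Figure D4:**
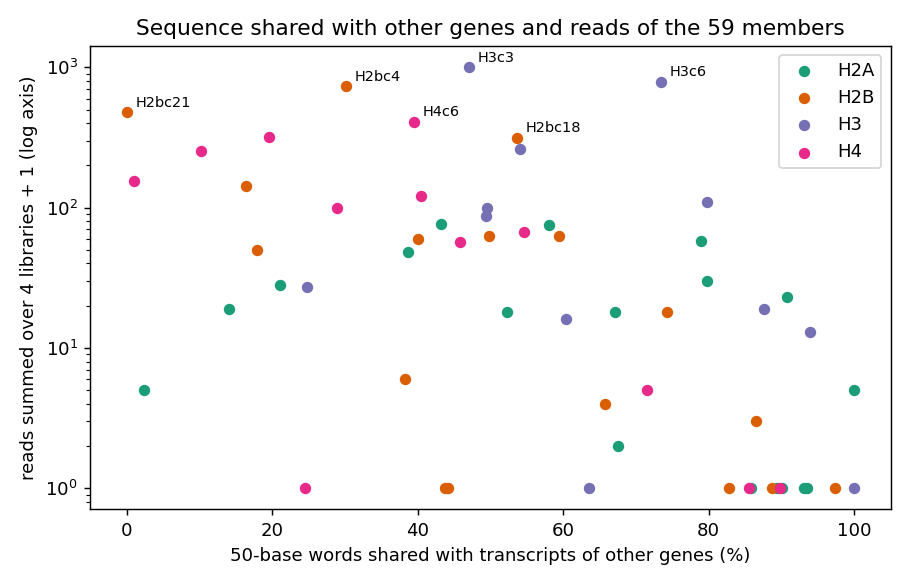
Reads summed over the 4 libraries plus 1 (log axis) against the share of 50-base transcript words found in other genes (percent) for the 59 members, coloured by class. Members without a read, on the bottom line, lie mostly at the right, while H2bc21 and other members with many reads lie further to the left.

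Linker histones bind where DNA enters and leaves the nucleosome. Of the 6 genes, H1f2 had 572 reads in the MV left tumor, 692 in TRP-1MV, 70 in the remote tumor and 89 in CTX, with a log2 ratio in the MV left tumor to CTX of 3.19 [2.86, 3.53]. H1f3 had 144 reads in the MV left tumor, 212 in TRP-1MV, 6 in the remote tumor and 8 in CTX, at 4.67 [3.66, 5.91]. H1f4 had 127 reads in the MV left tumor, 116 in TRP-1MV, 6 in the remote tumor and 8 in CTX, at 4.49 [3.47, 5.74]. All 3 were also called higher in TRP-1MV than in CTX and lay between −0.40 and −0.47 in the remote tumor against CTX. In the MV left tumor to the remote tumor H1f3 was the highest at 5.14 and H1f2 the lowest at 3.59, and in TRP-1MV to the MV left tumor H1f3 stood at 0.30 and H1f4 at −0.38. H1f1 had 7 reads in the MV left tumor, 7 in TRP-1MV and 0 in the remote tumor and CTX, and H1f5 had 0 in all. H1f6, a testis gene, had 12 reads in the MV left tumor, 4 in TRP-1MV, 1 in the remote tumor and 3 in CTX. H1f2 is, like H2bc4, reported to be polyadenylated, and its ratio lay above that of H2bc4. H2aw, an H2A gene on chromosome 11 outside both clusters, had 350 reads in the MV left tumor, 379 in TRP-1MV, 90 in the remote tumor and 88 in CTX, at 2.50 [2.16, 2.85]. The GENCODE model of H2aw shares 708 of its 2146 exon bases with that of the protein-coding gene Trim17 on the same strand. H4f16, an H4 gene on chromosome 6, had 59 reads in the MV left tumor, 79 in TRP-1MV, 4 in the remote tumor and 3 in CTX, at 4.80 [3.19, 7.12]. These genes thus moved in the direction of the members.

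Histone variant genes, most of which give messages with a poly(A) tail, did not show this pattern as a set. H3f3b, encoding H3.3, had 11796 reads in the MV left tumor, against 16732 in CTX, a log2 ratio of 0.00. H2az1, encoding H2A.Z, stood at −0.99, H2ax, encoding the variant of DNA damage signalling, at −0.05, and H1f0, a linker histone of resting cells, at 0.02. Beside 18.1% of all genes higher and 11.1% lower, 1 of 10 measured genes was called higher, namely H1f10 at 1.34. It had 41 reads in the MV left tumor, against 23 in CTX. Cenpa, the centromeric H3 gene, was called lower, with 707 reads in the MV left tumor, against 2007 in CTX, or 52.3 and 105 CPM. H2aj at 0.50, Macroh2a1 at 0.09, H2az2 at 0.01 and H3f3a at −0.40 met neither rule, and Macroh2a2 lay below the minimum with 12 reads in the MV left tumor, against 2 in CTX. The list median was 0.01. In TRP-1MV against CTX 1 of 10 was higher and 0 lower, beside 18.5% and 11.7% of all genes.

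Genes that make or end histone messages differed less than the members. Of 15, 5 were called higher in the MV left tumor than in CTX, beside 18.1% of all genes, and the median was 0.29. Zfp473, a zinc finger protein of histone pre-mRNA processing, had 204 reads in the MV left tumor, 231 in TRP-1MV, 40 in the remote tumor and 47 in CTX, at 2.62 [2.16, 3.11]. The others called were Hinfp, a factor of H4 promoters, at 1.60, the uridylyl transferase gene Tut7 at 1.28, Casp8ap2 at 1.23 and Mif4gd, a partner of the stem-loop binding protein, at 1.19. Slbp itself stood at 0.29 and Npat, the cyclin E target that activates histone transcription, at 0.80. Tut4 at 0.39, Upf1 at 0.15, Eri1 at −0.05, Cpsf2 at −0.34, Lsm11 at −0.34, Lsm10 at −0.38, Cpsf3 at −0.62 and Sympk at −0.70 were not called. In TRP-1MV against CTX 4 of the 15 were higher, beside 18.5% of all genes, and Casp8ap2 at 0.98 was not among the 4. Of 10 histone chaperone genes 0 were called in either comparison, from Asf1b at −0.88 to Daxx at 0.87 in the MV left tumor to CTX.

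Other features of the libraries moved with the members. Rn45s, the ribosomal precursor, Lars2, a gene with a stretch resembling ribosomal RNA, and the RNase RNAs Rpph1 and Rmrp together held 1.64% of all reads in the MV left tumor, 1.62% in TRP-1MV, 0.164% in the remote tumor and 0.141% in CTX. In the list of 8 RNAs that held them, these 4 were past the minimum, and all 4 were called higher in the MV left tumor than in CTX, from Rn45s at 2.64 to Lars2 at 5.96. The summed small nucleolar RNA genes, in contrast, had 753 reads in the MV left tumor, 796 in TRP-1MV, 873 in the remote tumor and 899 in CTX, or 55.7, 49.4, 43.9 and 46.9 CPM. The 2 libraries with more histone reads thus also had more of these 4 RNAs, and the part of this in the histone ratios was not tested.

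Markers of host cells moved with the members too. All 8 T cell markers were called higher in the MV left tumor than in CTX, and they summed to 230 CPM in the MV left tumor, 228 in TRP-1MV, 8.89 in the remote tumor and 8.97 in CTX. Among B cell markers, Ms4a1 had 0 reads in CTX and Cd79b had 0 in the remote tumor. All 6 myeloid markers were higher, with sums of 899, 1331, 64.3 and 48.1 CPM in the MV left tumor, TRP-1MV, the remote tumor and CTX. All 4 measured neutrophil markers were higher too, with sums of 156, 249, 1.36 and 0.782 CPM in the same order of libraries. S100a8 had 0 reads in the remote tumor and CTX, and Ly6g had 0 in the remote tumor. All 8 melanocyte markers were lower, with sums of 5794 CPM in the MV left tumor, 5424 in TRP-1MV, 25430 in the remote tumor and 24990 in CTX. The part of cell makeup in the histone ratios was not tested, and in bulk tumors fewer cells of a type and less RNA per cell cannot be told apart.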

How the data were processed

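RNA-seq libraries of 4 groups were used. The deposited values are raw counts per gene, whole numbers over 25239 symbols. The submitters' processing notes name HISAT2, featureCounts and mm10, with no versions. Which annotation, strand setting and rule for multiply mapped reads were used is not given in those sources. There were 0 other columns of per-sample values.

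Counts were scaled with TMM over the 4 libraries (edgeR 4.0.16, R 4.3.3) and given as CPM. In 5 pairs of libraries, ratios were formed for genes averaging 10 or more reads. Ratios have 95% exact conditional binomial intervals (Python 3.11.15 with pandas 2.3.3, scipy 1.17.1 and numpy 2.4.6). No molecular tags are named in those sources, and the intervals cover counting error only. A count of 0 was replaced by a floor of 3 counts per library, and genes with at most 3 reads in both libraries got no ratio. Calls needed a ratio of 2 or more and an interval without 1. The calling was run on simulated counts that held counting error alone, which cannot show how far animals or preparations differ. Figures were drawn with matplotlib 3.10.9.

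Older histone symbols were matched through RefSeq synonyms. All 59 members were found in GENCODE M21 (GRCm38, the build of the files), and 52 had a RefSeq promoter (GRCm38.p6). In a list of RNAs without a poly(A) tail, 5 symbols were not matched and not used here. The summed B cell markers are not reported here.

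Members and lists were chosen with earlier results of these data known. Named members were the highest and lowest ratio in each class (H1 included) and comparison, the 3 with most reads in each class, members called between TRP-1MV and the MV left tumor or between the remote tumor and CTX, the polyadenylated and testis genes, the S phase genes of the rule, and list members at either end. Neighbours of H2bc18, H3c13, H2bc6 and H2aw were added after their values were seen. So were the stretches, head-to-head pairs, the sum without H2bc21 and genes with an older Hist name. Scaling was also done by upper quartile, by total count, by a housekeeping list, by DESeq2 1.42.0 size factors, and by TMM without members and RNAs lacking a poly(A) tail. Other alternatives were other minimum counts, a ratio of 1.5, thinning to the smallest library, and other sets of members or S phase genes.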

Additional observations from a re-analysis of the deposited data

How the results depend on the processing

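No paired analysis was possible because 1 library stood for each group, and no replicate could be left out. No called direction of the members, summed or per S phase read, turned under the alternatives run; Mcm5, the S phase median, H4c9 and H2bc11 turned on the housekeeping scale, as given above. A minimum mean count of 50 could also be passed through the MV left tumor and TRP-1MV. Of all genes, 13.4% were then called higher in the MV left tumor against CTX and 13.7% in TRP-1MV against CTX. In the MV left tumor against the remote tumor 14.0% were. Members called higher numbered 8 of 9, 9 of 9 and 8 of 9 in these comparisons. With 10 or more reads required in CTX or the remote tumor, a setting added after the data were seen, they numbered 4 of 8, 6 of 8 and 4 of 9, against 12.4%, 12.9% and 13.3% of all genes. Between TRP-1MV and the MV left tumor 1 member, H2ac15, was lower with no minimum count and also 1 with 10 reads required in the MV left tumor, on 3 reads in TRP-1MV and 14 in the MV left tumor. Per S phase read, leaving out the members reported as polyadenylated gave log2 ratios of 4.80 in the MV left tumor to CTX, 4.80 in TRP-1MV to CTX and 4.81 in the MV left tumor to the remote tumor. Using all 30 S phase genes gave 3.43, 3.49 and 3.45 in the same order, and means of log2 ratios gave 4.47, 4.54 and 4.57. Adding the genes with an older Hist name, also after the data were seen, gave 4.31 in the MV left tumor to the remote tumor. Of 30 such values over the 5 comparisons, 20 moved by less than counting error and 10 by more. Those from leaving out polyadenylated members, from all 30 S phase genes and from means of log2 ratios, as given here, were among the 10. The 30 also cover the remote tumor to CTX and TRP-1MV to the MV left tumor, which lay near equality. Over the scalings the summed members ranged up to 3.53 in the MV left tumor to CTX on the housekeeping scale. Depth limits single members, and 14 members with reads elsewhere had 0 in CTX.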

Other observations

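Of the 14 members with reads elsewhere and 0 in CTX, 6 had reads in the remote tumor and 8 had none. H2ac10 had 14 reads in the MV left tumor, 9 in TRP-1MV, 6 in the remote tumor and 0 in CTX. H3c13 had 3 reads in the remote tumor, H4c1, H3c11 and H4c12 had 2 each, and H2ac7 had 1. The others had 0 reads in the remote tumor as well, among them H2ac21 with counts of 16 for the MV left tumor and 11 for TRP-1MV, H2ac15 with 14 and 3, and H3c2 with 11 and 4. The members singled out here were picked after their values were seen.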
